A study of Mus musculus with 12 samples.

Results

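Oxidative phosphorylation is the step in which mitochondria pass electrons down a chain of protein complexes and use the resulting proton gradient to make ATP. Complex I (NADH dehydrogenase) and complex II (succinate dehydrogenase) take up electrons, complex III passes them to cytochrome c, complex IV (cytochrome c oxidase) hands them to oxygen, and complex V is the ATP synthase. Complexes I, III, IV and V are built from both genomes, so that a few core subunits are made from mitochondrial DNA and the rest are encoded in the nucleus and imported, whereas complex II is wholly nuclear. Neurons depend strongly on this pathway for the ATP that ion pumping and synaptic transmission use.

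The genes described here are the protein-coding mouse genes whose symbols name a subunit of these complexes, or a complex I assembly factor of the Ndufaf series. The rule found 106 genes among the 36902 in the tables, of which 13 are mitochondrially encoded and 93 nuclear encoded. Counts were given for 104 of them, because Ndufs3 (complex I) and Uqcrc1 (complex III) are NA in every table. The nuclear genes comprise 38 of complex I, 8 complex I assembly factors, 4 of complex II, 8 of complex III, 18 of complex IV and 17 of complex V. The mitochondrial genes comprise 7 of complex I, 1 of complex III, 3 of complex IV and 2 of complex V. Symbols decided the grouping, so Ndufa4, which is found in complex IV, is listed with complex I, and Atp5s is listed with complex V.

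RNA was measured by poly(A)-selected, strand-specific sequencing in 12 libraries of glutamatergic neurons that had been differentiated from mouse embryonic stem cells and harvested at day 21 in vitro. There were 6 labelled cell lines. Of these, 3 were wild type (WT, labelled Daam1-MIC_WT) and 3 carried a deletion of a microexon of Daam1 (KO, labelled Daam1-MIC_KO), a formin gene that acts on actin filaments. Each line gave 1 library after 2 h in water (vehicle) and 1 library after 2 h in 10 µM Y-27632, an inhibitor of the kinase ROCK, which makes 4 groups of 3. Libraries are named below by genotype, treatment and line number, such as KO inhibitor 3. The design text names adult hippocampus, but each sample's own label names cultured neurons, and those labels were followed. Nothing in the labels says that cell lines of 1 genotype came from separate derivations, so p-values measure the spread between these lines. The fit of all 12 libraries used 1 shared estimate of that spread. Each library therefore also affects SEs and p-values of comparisons it is not in.

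Library totals ran from 23253566 to 35012561 counts. KO inhibitor 3 stood apart from the other 11: its median correlation with them was 0.854, against 0.953 to 0.986 for the others. Its summed level of 12 glutamatergic markers was 731 CPM (each gene's count over the library total multiplied by edgeR's TMM factor for that library, scaled to a common size), against 2185 to 3420 CPM in the other 11 libraries. Its 7 GABAergic markers were low as well, at a sum of 211 CPM against 453 to 649 CPM in the others. Its 6 astrocyte markers summed to 1189 CPM (58.1 to 336 CPM in the others) and its 8 neural progenitor markers to 1117 CPM (52.5 to 464 CPM). The 8 mesenchymal markers summed highest in WT vehicle 2 (1257 CPM) and WT inhibitor 3 (820 CPM), against 39.3 to 413 CPM in the remaining 10. In these bulk samples, fewer cells of a type and less RNA per cell cannot be told apart. Over its whole gene, which does not check a microexon, Daam1 was at 133 to 183 CPM in the 6 WT libraries and at 67.9 to 188 CPM in the 6 KO libraries.

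The start sites of the nuclear members were searched for short cores of 3 factors known to act on genes of oxidative phosphorylation. Promoters came from the RefSeq promoter table (GRCm38.p6, 250 bases before to 50 bases after each start). The search used both strands and allowed motifs to overlap. It covered 79 promoters of the 74 nuclear members that matched by symbol. The NRF1 core (GCGCATGC or GCATGCGC) was found in 12 of the 79 promoters (15.2%), against 2.71% of all 32851 promoters in the table and 4.71% of promoters of genes tested here. The ETS core bound by GABP (CCGGAAG or CTTCCGG) was found in 18 (22.8%), against 8.86% of all promoters and 15.2% of those of tested genes. The YY1 core (AAGATGG or CCATCTT) was found in 11 (13.9%), against 6.34% and 6.49%. These are matches of letters and do not show that a factor is bound.

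The 250 bases before the start are printed for 3 members to which the results return, 5′ to 3′ on the strand of the gene, with the cores in capitals. Cox6a1 is the complex IV isoform that prevailed over its muscle counterpart here and holds both an NRF1 and an ETS core (chr5:115348959-115349208, minus strand). Ndufaf4 is an assembly factor and holds an NRF1 core (chr4:24897833-24898082, plus strand). Of the 86 nuclear members tested, it was 1 of 4 that lay wholly lower in treated than in untreated KO neurons, as 5.65% of all genes did. Sdhd, an anchor subunit of complex II, was higher in KO under both treatments and holds an ETS core (chr9:50603850-50604099, minus strand).
Cox6a1: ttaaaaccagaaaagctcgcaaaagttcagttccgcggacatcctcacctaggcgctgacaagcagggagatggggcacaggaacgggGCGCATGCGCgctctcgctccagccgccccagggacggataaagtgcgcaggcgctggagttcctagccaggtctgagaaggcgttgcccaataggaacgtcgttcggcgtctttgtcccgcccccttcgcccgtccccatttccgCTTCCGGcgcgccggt
Ndufaf4: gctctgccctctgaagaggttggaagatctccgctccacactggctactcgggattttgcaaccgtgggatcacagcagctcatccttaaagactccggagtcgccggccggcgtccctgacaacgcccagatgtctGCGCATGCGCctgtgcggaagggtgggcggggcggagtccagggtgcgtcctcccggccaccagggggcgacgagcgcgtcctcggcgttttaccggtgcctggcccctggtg
Sdhd: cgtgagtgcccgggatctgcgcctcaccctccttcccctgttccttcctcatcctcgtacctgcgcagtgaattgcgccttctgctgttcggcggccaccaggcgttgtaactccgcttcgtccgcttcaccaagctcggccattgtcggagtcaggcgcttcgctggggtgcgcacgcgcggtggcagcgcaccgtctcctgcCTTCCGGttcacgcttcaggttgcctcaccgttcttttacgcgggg

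Levels between genes were compared per length, as the deposited cRPKM (reads scaled by gene length and depth, with a correction that no source used here explains). The mitochondrial mRNAs were by far the most abundant members. mt-Co1, the catalytic subunit of complex IV, had the highest cRPKM of all genes in the tables (32029 ± 4523, SD over 12 libraries), followed by mt-Atp6, the proton channel subunit of complex V (26449 ± 3616), mt-Co3 (20452 ± 2805) and mt-Co2 (19715 ± 2351). The median over the 13 mitochondrial members was 7553 cRPKM, against 90.4 cRPKM over the 91 nuclear members with counts.

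The mitochondrial members were far from equal in cRPKM, although the genome encodes all but 1 of them on a single strand. These are values per gene and not per RNA molecule. mt-Cytb, the cytochrome b of complex III, stood at 12842 ± 1972 cRPKM. The complex I subunits followed with mt-Nd4 at 10580 ± 1897, mt-Nd1 at 7553 ± 1036, mt-Nd2 at 6455 ± 1028, mt-Nd5 at 5476 ± 1045, mt-Nd4l at 5010 ± 1196 and mt-Nd3 at 3305 ± 530 cRPKM. mt-Atp8, the small partner of mt-Atp6, stood at 5912 ± 1736 cRPKM. In the descending order mt-Nd1, mt-Nd2, mt-Atp8, mt-Nd5 and mt-Nd4l, as for mt-Co3 and mt-Co2, each difference between neighbours was smaller than their spread over libraries or close to it.

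mt-Nd6 was the exception. It is the only member on the minus strand of the mitochondrial genome (chrM:13552-14070, GRCm38), and its 3′ end overlaps that of mt-Nd5 (chrM:11742-13565, plus strand) by 14 nt. Its level was 212 ± 51.7 cRPKM over the 12 libraries, and mt-Co1 exceeded it by 120.3-fold to 247-fold, with a median of 148-fold. The libraries were poly(A)-selected, and whether this captured mt-Nd6 as well as the other members was not tested. Whether the authors' counting used the strand is not stated, so reads from mt-Nd5 and mt-Nd6 in their overlap cannot be told apart. The same holds on 1 strand for mt-Atp8 and mt-Atp6, which share 43 nt, and for mt-Nd4l and mt-Nd4, which share 7 nt.

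The length by which the authors scaled each gene can be read from the ratio of count to cRPKM, and it affects the levels. For 12 of the 13 mitochondrial genes this length was the annotated length less 49 nt, within 1 nt. The exception was mt-Nd5, scaled by 1476 nt although it is 1824 nt long. Among nuclear members the deposited length ran from 92 nt (Atp5h) to 4375 nt (Atp5g1). Atp5h, Atp5l (300 nt), Atp5g1 and Ndufb2 (4323 nt) were scaled by lengths far from their shorter coding transcripts, so their rank among members is uncertain. The same holds for Ndufa11, scaled by 2612 nt although its longest annotated transcript is 918 nt.

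**Figure D1:**
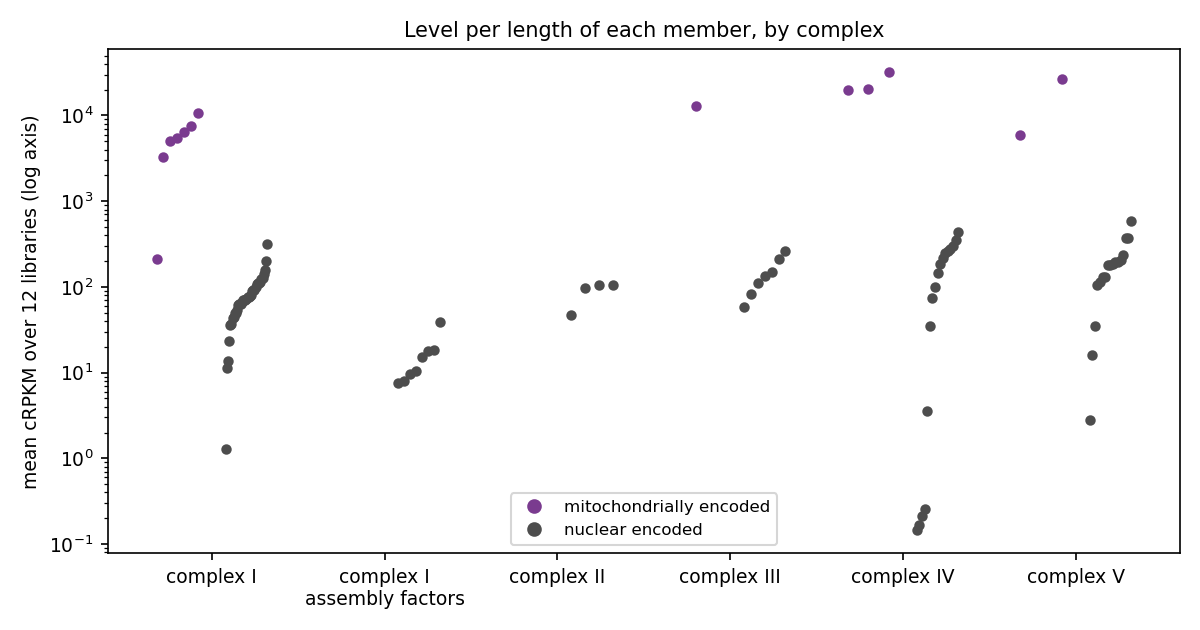
Mean cRPKM over the 12 libraries (log axis) of each member, grouped by complex, with mitochondrially encoded members in purple and nuclear encoded members in grey. Each point is 1 gene and points are spread sideways by rank; Cox8c, listed at 0, is not drawn. The mitochondrial members lie above the nuclear ones in each complex that has both, except mt-Nd6 at 212 cRPKM, which lies below Ndufa4 at 320 cRPKM.

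Among the nuclear members, ATP synthase genes were the most abundant. Atp5b, the catalytic beta subunit, had 582 ± 39.8 cRPKM and ranked 40th of all genes, and Atp5d, the delta subunit, was the lowest of complex V at 2.81 ± 0.73 cRPKM. Atp5d overlaps Cbarp on the opposite strand over 2204 nt, so its counts are uncertain. In complex IV the highest was Cox4i1 at 432 ± 29.2 cRPKM and the lowest Cox8c, at 0 counts in every library. Complex III ran from Uqcrq, a small subunit (58.5 ± 7.51 cRPKM), to Uqcrh, the hinge protein (266 ± 33.6 cRPKM).

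Complex II genes were within a narrow band, from Sdhc (46.9 ± 2.96 cRPKM), a membrane anchor, to Sdhd (106 ± 8.90 cRPKM). Complex I ran from Ndufa4l2 (1.27 ± 0.82 cRPKM) to Ndufa4 (320 ± 38.3 cRPKM). The 8 assembly factors, which help build complex I without staying in it, were the least abundant class, with a median of 12.8 cRPKM, from Ndufaf6 (7.56 ± 0.65) to Ndufaf5 (39.1 ± 8.40).

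Several subunits exist as isoforms that other tissues use, and in these cultures 1 isoform prevailed in each of the pairs given next. Cox4i1 stood at 432 cRPKM and Cox4i2, the isoform known from lung and low oxygen, at 0.26 ± 0.14 cRPKM, from 0 to 10 counts a library. Cox6a1 stood at 279 ± 14.9 cRPKM and the heart and muscle isoform Cox6a2 at 0.17 ± 0.08 cRPKM, from 1 to 6 counts a library. Cox7a2 (144 ± 15.2) exceeded the muscle isoform Cox7a1 (3.57 ± 1.63) by 19.3-fold to 92.5-fold. Cox7a2l, listed with this pair, ranked above Cox7a2 by mean cRPKM (272nd against 347th of all genes). The muscle isoform Cox8b was listed at 0 in 11 libraries and at 1.74 cRPKM in library KO inhibitor 3, while Cox8a stood at 355 ± 30.1 cRPKM.

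Of the isoforms best known from testis, Cox6b2 was the only one with an appreciable level. It had 35.0 ± 6.86 cRPKM, against 297 ± 27.1 cRPKM for Cox6b1, a ratio of Cox6b1 to Cox6b2 of 6.35 to 11.6. Cox7b2 had 0.21 ± 0.19 cRPKM, from 0 to 8 counts a library. The 3 genes for the c subunit of the ATP synthase ring, whose mature proteins are the same, ranked Atp5g3 (367 ± 28.9 cRPKM), Atp5g2 (131 ± 22.2) and Atp5g1 (34.9 ± 4.78), the last on its long deposited length. Atp5g3 exceeded Atp5g2 by 1.81-fold to 3.40-fold, and the lowest ratio was in library KO inhibitor 3.

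Counted without regard to length, and as shares of each library's plain total, the 13 mitochondrial members took 9.60% to 17.4% of all counts. The 91 nuclear members took 0.843% to 1.08%. The mitochondrial share in WT lines 1 to 3 was 15.3%, 15.0% and 14.2% in vehicle and 15.3%, 15.7% and 16.4% in inhibitor. In KO lines 1 to 3 it was 17.4%, 15.5% and 12.8% in vehicle and 12.8%, 13.8% and 9.60% in inhibitor. All 3 treated KO libraries thus lay below all 3 treated WT libraries, whereas the vehicle groups overlapped.

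The group means were 14.8% ± 0.57 (SD, n = 3) for WT in vehicle, 15.3% ± 2.31 for KO in vehicle, 15.8% ± 0.53 for WT in inhibitor and 12.1% ± 2.19 for KO in inhibitor. The spread over KO lines was wider than that over WT lines in both treatments. Relative to vehicle, the share in inhibitor was 1.00, 1.05 and 1.15 times as large in WT lines 1 to 3 and 0.736, 0.885 and 0.747 times as large in KO lines 1 to 3. The nuclear share showed no such split, at 0.992, 1.17 and 0.946 times in WT and 1.11, 0.921 and 0.855 times in KO. Without library KO inhibitor 3, the treated KO mean was 0.842 times the treated WT mean, against 0.764 times with it.

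**Figure D2:**
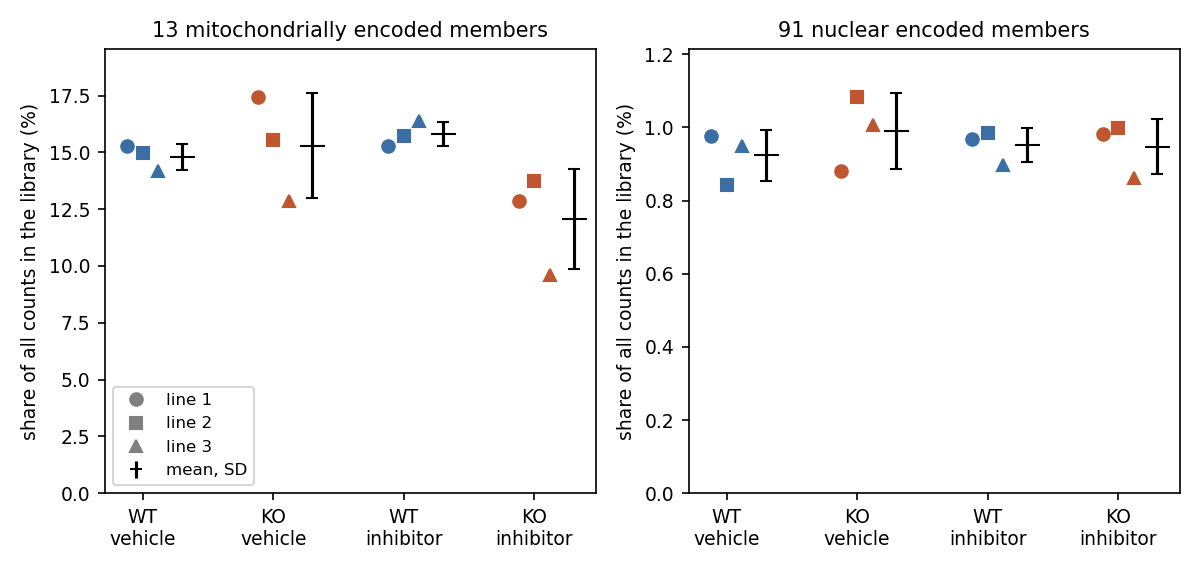
Share of all counts in each library (%) taken by the 13 mitochondrially encoded members (left) and the 91 nuclear members (right), by group, with symbols for line 1 (circle), line 2 (square) and line 3 (triangle) and a bar for the mean and SD (n = 3). The treated KO libraries sit between 9.60% and 13.8% in the left panel, below the treated WT libraries at 15.3% to 16.4%, while the nuclear shares, 0.843% to 1.08%, overlap between groups.

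No member was called in any of the 6 comparisons by edgeR's quasi-likelihood test or by DESeq2 at an adjusted p below 0.05 over all genes tested. The tests covered all 13 mitochondrial members and 86 nuclear members among 15443 genes (87 among 16090 after summing both libraries of a line); the other 5 nuclear members with counts, among them Cox8b and Cox8c, were too low. At an unadjusted p below 0.05, edgeR had 1 member in each of KO against WT in vehicle, KO against WT in inhibitor and inhibitor against vehicle in WT, 0 in the inhibitor comparison in KO and in the interaction, and 4 over line sums. DESeq2 had 2, 9 (8 of them mitochondrial), 1, 8 (all mitochondrial), 3 and 6 in the same order. Over all genes tested, DESeq2 had 499, 866, 66, 2164 and 508 of 15443 in that order, and 666 of 16090 over line sums. With all 12 libraries, edgeR had 307 of 15443 genes at that unadjusted threshold for KO against WT in vehicle. Without library KO inhibitor 3, which is not in that comparison, it had 1336 of 15591 genes, 11 of them members. For KO against WT in inhibitor edgeR then had 5 members (1481 genes). Without the KO sums of line 3 it had 12 over line sums (2136 of 16337 genes). Few genes of any kind passed the adjusted threshold. edgeR called 0% of genes in each comparison, and DESeq2 called 0.0718% for KO against WT in vehicle, 0.122% for KO against WT in inhibitor, 0% for inhibitor against vehicle in WT, 0% for inhibitor against vehicle in KO, 0% for the interaction and 0.565% for KO against WT over line sums. The differences below are therefore given as values, with the count of members whose libraries did not overlap between groups and the share of all tested genes for which that was so.

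The first question was whether neurons without the Daam1 microexon differ from WT neurons before any treatment. In vehicle, long nuclear members were slightly higher in KO, and mitochondrial members showed no common direction. The median log2 fold change of KO over WT was 0.10 over the 86 nuclear members and 0.06 over the 13 mitochondrial members, against -0.01 over all genes tested. The libraries of 16 nuclear members lay wholly higher in KO and of none wholly lower, where 7.62% of all genes lay wholly higher and 4.9% wholly lower. None of the 13 mitochondrial members had libraries that did not overlap.

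The 16 include core catalytic genes of complexes I, II and V. Complex II contributed all 4 of its genes: Sdha, the flavoprotein that oxidises succinate, Sdhb, its iron-sulfur partner, and the anchors Sdhc and Sdhd, with log2 fold changes from 0.10 to 0.25. From complex I they include Ndufs1, Ndufv1 and Ndufv2, which carry electrons from NADH, and Ndufa9. Complex V contributed Atp5a1, Atp5b and Atp5c1 of the catalytic head and Atp5f1 and Atp5o of the stalk, and complex III Uqcrc2 and Uqcrfs1. No gene of complex IV was among them. Of complex IV members with a deposited length, only Cox7a2l (1029 nt) and Cox7b (952 nt) were scaled by 800 nt or more. Most of the 16 were that long, as given below, and the part of length in this grouping was not tested.

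Ndufs1 (chr1:63143596-63176833, minus strand), the largest subunit of complex I, had the largest difference among these 16. It was at 123, 101 and 132 CPM in WT lines 1 to 3 and at 141, 153 and 155 CPM in KO lines 1 to 3 (log2 fold change 0.33 ± 0.18 SE, edgeR adjusted p = 0.999). Sdha (chr13:74322254-74350280, minus strand) was at 256, 250 and 275 CPM in WT and at 287, 313 and 332 CPM in KO (0.25 ± 0.18, edgeR adjusted p = 0.999). In both genes every KO library was above every WT library, and neither difference passed the test. Ndufs1 overlaps a long non-coding gene, Ino80dos, on the opposite strand over 14695 nt.

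The opposite extreme was Ndufa4l2 (chr10:127514967-127517154, plus strand), a relative of Ndufa4 known to be induced by low oxygen. It was at 1.41, 3.08 and 0.55 CPM in WT lines 1 to 3 and at 0.44, 0.48 and 0.74 CPM in KO lines 1 to 3. The log2 fold change was -1.59 ± 0.56 with an unadjusted p of 0.0181 (edgeR adjusted p = 0.999), and it was the only tested member with an unadjusted p below 0.05, against 1.99% of all genes. Its highest library was library WT vehicle 2, without which the log2 fold change was -0.82. That library also had the highest mesenchymal marker sum; the part of those cells in this value was not tested.

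Length moved with these results. The 16 nuclear members that lay wholly higher in KO had a median deposited length of 1565 nt, with 15 of them at 800 nt or more, against a median of 683 nt for the other 70. In library KO vehicle 1, short members were low. There mt-Atp8 (155 nt) was at 0.287 times its median over the 12 libraries, mt-Nd4l (248 nt) at 0.527 times and Atp5k (322 nt), a small subunit of complex V, at 0.386 times.

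Across nuclear members under 400 nt, the median in that library was -0.44 on the log2 scale relative to each gene's 12-library median, and for members of 1500 nt or more it was 0.02. The mitochondrial members of 800 nt or more were at 0.34 there, the highest of any library. The ratio of mt-Atp6 to mt-Atp8 cRPKM was 18.9 in this library, against a median of 4.24, and the mitochondrial log2 fold changes for KO over WT ran from -0.33 for mt-Atp8 to 0.17 for mt-Nd5. Atp5h and Atp5l, whose short deposited lengths do not match their transcripts, were not low in it, at 1.26 and 1.24 times.

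Without library KO vehicle 1, 38 of the 86 nuclear members lay wholly higher in KO, against 14.1% of all genes with that library left out. Without library WT vehicle 2 the count was 17, against 11.7% of all genes. The nuclear median was 0.17 without the former, 0.04 without the 3 libraries that stand apart and 0.02 without library KO vehicle 2, where 52 of the 83 nuclear members at 1 CPM or more in every library had their highest value. The mitochondrial median changed sign without library KO vehicle 1, to -0.04. All 8 mesenchymal markers were lower in KO in vehicle, with a median of -3.00 (-1.83 without library WT vehicle 2) and 2 of them wholly lower. The summed GABAergic markers were wholly higher in KO, at 570 to 649 CPM against 453 to 489 CPM in WT. The astrocyte and progenitor markers had medians of -0.60 and -0.59, which were 0.01 and 0.12 without library WT vehicle 2. The part of any of these markers in the nuclear values was not tested.

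**Figure D3:**
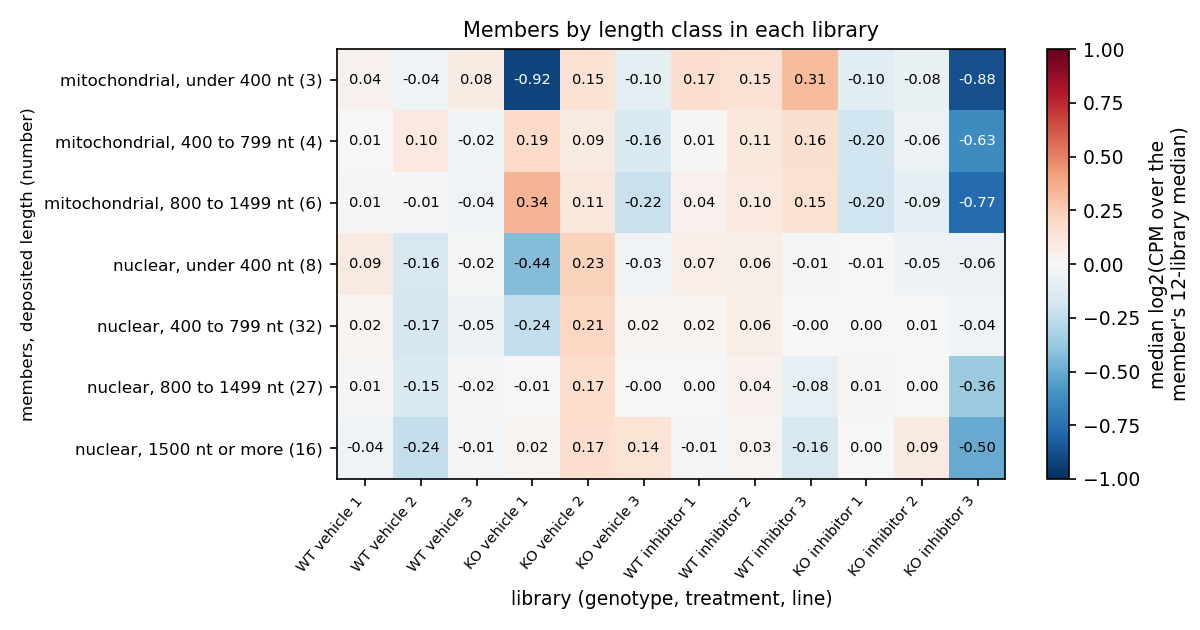
Median over members of the log2 ratio of CPM to the member's own 12-library median, in each library (columns: genotype, treatment, line) and each class of deposited length (rows, number of members in brackets; nuclear members at 1 CPM or more in every library). Short members are low in library KO vehicle 1 (-0.92 and -0.44), and in library KO inhibitor 3 the longest nuclear members are at -0.50 and all mitochondrial classes between -0.63 and -0.88.

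The second question was whether KO and WT neurons differ under ROCK inhibition. There the mitochondrial members were lower in KO as a group. All 13 had negative log2 fold changes, from -0.24 (mt-Nd3) to -0.68 (mt-Nd6), with a median of -0.41, against -0.00 over all genes and -0.06 for the 86 nuclear members. For 12 of the 13, mt-Nd3 being the exception, all KO libraries lay below all WT libraries, where 7.03% of all genes did so. The nuclear members were near the background, with 7 of 86 wholly lower and 3 wholly higher (3.51% of all genes).

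By complex, the core oxidase subunits mt-Co1, mt-Co2 and mt-Co3 differed by -0.42 ± 0.23, -0.39 ± 0.20 and -0.35 ± 0.22 (log2, SE). mt-Cytb differed by -0.41 ± 0.23. The complex I subunits mt-Nd1, mt-Nd2, mt-Nd4 and mt-Nd5 differed by -0.36 ± 0.21, -0.40 ± 0.23, -0.49 ± 0.24 and -0.54 ± 0.26, and mt-Nd4l by -0.62 ± 0.28. mt-Atp6 and mt-Atp8 differed by -0.38 ± 0.22 and -0.53 ± 0.43. All 13 had an edgeR adjusted p of 0.856, and in none was the difference past the threshold.

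mt-Nd6, the minus-strand gene, was the member with the smallest unadjusted p (0.0057, the only member below 0.05, against 3.5% of all genes). It was at 133, 121 and 143 CPM in treated WT lines 1 to 3 and at 83.6, 92.5 and 71.8 CPM in treated KO lines 1 to 3. The other strand's largest message, mt-Co1, was at 51214, 53457 and 54730 CPM in treated WT and at 41758, 46451 and 30987 CPM in treated KO. In both genes the KO library of line 3 was the lowest of the 12, or in mt-Nd6 the lowest but for library WT vehicle 2 at 67.2 CPM.

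Library KO inhibitor 3 was the lowest of all 12 for 10 of the 13 mitochondrial members and for 36 of 83 nuclear members. Without it, the same number of mitochondrial members, 12 of 13, lay wholly lower in KO, against 19.6% of all genes, the mitochondrial median was -0.26 and the nuclear one 0.01. Of the nuclear members 17 lay wholly lower and 14 wholly higher without it, and 17.1% of all genes lay wholly higher. With all 3 libraries that stand apart left out, the median was -0.19 and mt-Nd3 changed sign to 0.11. The marker lists moved with the same library. Over treated WT the astrocyte and progenitor markers had medians of 1.24 and 0.91 with library KO inhibitor 3 and of -0.38 and -0.54 without it. The astrocyte sum was 151, 89.5 and 1189 CPM in treated KO lines 1 to 3, against 168 to 258 CPM in treated WT. All 8 mesenchymal markers were negative, with a median of -2.68, and -2.62 without that library. The part of these markers in the mitochondrial values was not tested.

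The 2 mitochondrial ribosomal RNAs are made from the same strand as most of the messages, and their capture by poly(A) selection was not tested. Both were at -0.37 for treated KO over treated WT, which rested on library KO inhibitor 3. Their summed level was 8519, 10045 and 3421 CPM in treated KO and 8927, 9043 and 10448 CPM in treated WT, and without that library mt-Rnr1 was at 0.01 and mt-Rnr2 at -0.05. The 7 nuclear members that lay wholly lower were Ndufa3, Ndufb3 and Ndufb4, accessory subunits of complex I, Uqcr10 and Uqcr11 of complex III, and Cox6c and Cox7c of complex IV. Their median deposited length was 466 nt, against 880 nt for the 76 that overlapped. Ndufb3 was at 50.2, 51.8 and 45.6 CPM in WT and at 43.9, 42.5 and 39.4 CPM in KO (-0.23 ± 0.15, edgeR adjusted p = 0.856), and Ndufb4 differed by -0.20 ± 0.13.

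The 3 members that lay wholly higher were Ndufb11, Sdhd and Cox6b2. Sdhd (chr9:50596357-50603812, minus strand), whose promoter is printed above, was at 121, 126 and 110 CPM in treated WT and at 129, 131 and 143 CPM in treated KO (0.17 ± 0.09, edgeR adjusted p = 0.856). In vehicle it was at 122, 120 and 114 CPM in WT and at 128, 134 and 125 CPM in KO. Sdhd was the only complex II gene above WT in both treatments without overlap; Sdha, Sdhb and Sdhc had log2 fold changes between -0.08 and -0.06 in inhibitor. Cox6b2 was at 15.7, 16.3 and 18.1 CPM in treated WT and at 19.7, 18.4 and 23.8 CPM in treated KO (0.31 ± 0.17, edgeR adjusted p = 0.856), and without library KO inhibitor 3 the difference was 0.19.

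**Figure D4:**
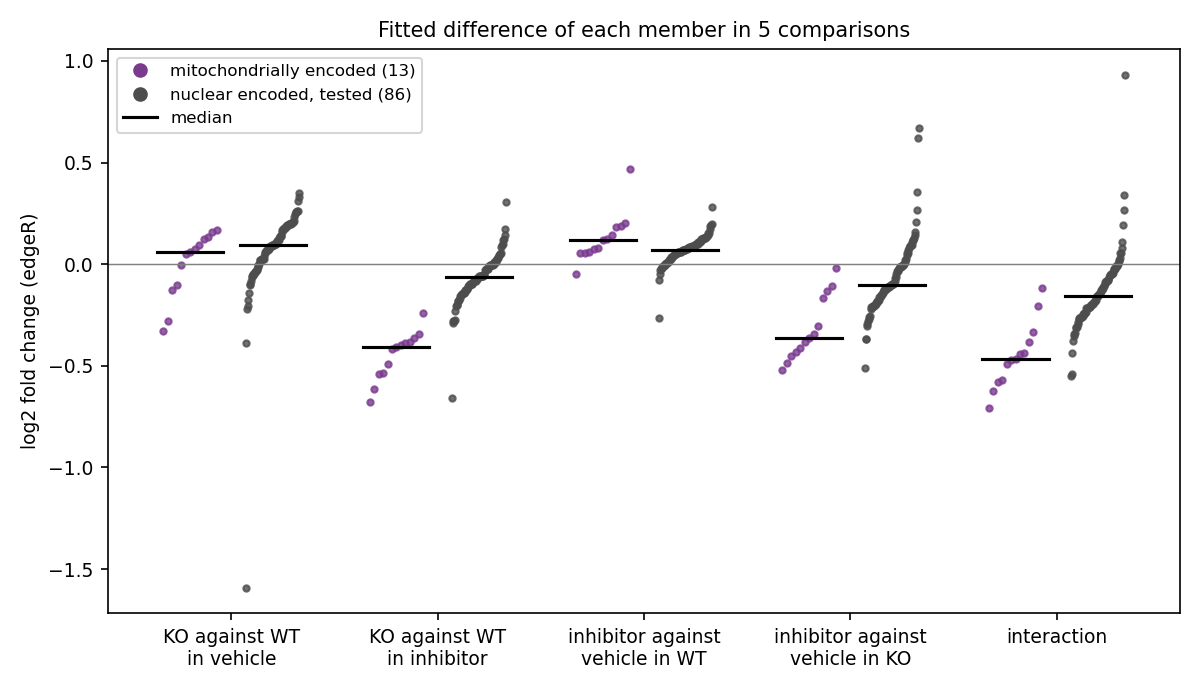
Log2 fold changes fitted by edgeR for the 13 mitochondrially encoded members (purple) and the 86 tested nuclear members (grey) in 5 comparisons; each point is 1 gene, spread sideways by rank, and the black line is the median. All 13 mitochondrial points lie below 0 for KO against WT in inhibitor, for inhibitor against vehicle in KO and for the interaction; the single low point at -1.59 is Ndufa4l2.

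The third question was what 2 h of ROCK inhibition did within each genotype. The comparisons in WT and in KO share no library with each other, but each shares its libraries with the genotype comparisons above. In WT, differences were small and mostly positive: the median was 0.12 over mitochondrial members (12 of 13 positive), 0.07 over nuclear members (75 of 86 positive) and 0.01 over all genes. The libraries of 6 mitochondrial and 5 nuclear members lay wholly higher in inhibitor and of none wholly lower, against 3.04% and 2.93% of all genes. The 6 were mt-Nd2, mt-Nd4, mt-Nd4l, mt-Nd5, mt-Nd6 and mt-Cytb.

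mt-Nd6 had the largest difference in WT, 0.47 ± 0.19, with an unadjusted p of 0.0348 (0.304% of all genes were below 0.05; edgeR adjusted p = 1.00). It was at 118, 67.2 and 101 CPM in vehicle and at 133, 121 and 143 CPM in inhibitor. Without library WT vehicle 2, the lowest of these 6, the difference was 0.24. The nuclear members that lay wholly higher were 5 complex I genes: Ndufa2, Ndufa3, Ndufa13, Ndufab1, the mitochondrial acyl carrier protein, and Ndufb7. Ndufa13 overlaps Yjefn3 on the same strand over 8379 nt, so its counts are uncertain. Ndufab1 was at 44.4, 38.2 and 43.4 CPM in vehicle and at 50.0, 47.0 and 47.2 CPM in inhibitor (0.19 ± 0.14), and Ndufb7 at 41.3, 39.9 and 36.4 against 44.2, 44.0 and 45.8 CPM (0.19 ± 0.14), both with an edgeR adjusted p of 1.00. Without library WT vehicle 2 the nuclear median was -0.01 and Ndufab1 was at 0.10.

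In KO, both sets were lower in inhibitor, the mitochondrial one more so. The median was -0.36 over the 13 mitochondrial members, all negative, and -0.10 over the 86 nuclear members, 63 of them negative, against -0.02 over all genes. None of the 13 mitochondrial members had libraries that did not overlap; among nuclear members 4 lay wholly lower (Ndufv1, Ndufaf4, Ndufaf5 and Atp5c1) and none wholly higher, against 5.65% and 3.19% of all genes. No member reached an unadjusted p below 0.05, against 7.05% of all genes. The mitochondrial ribosomal RNAs were at -0.49 (mt-Rnr1) and -0.47 (mt-Rnr2) on the log2 scale, and at -0.11 and -0.15 without library KO inhibitor 3.

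Among these 4, the largest differences were in 2 complex I assembly factors. Ndufaf5 (chr2:140170649-140203689, plus strand), which modifies a subunit during assembly, was at 49.5, 56.7 and 48.6 CPM in vehicle and at 45.0, 45.2 and 18.4 CPM in inhibitor (-0.51 ± 0.29, edgeR adjusted p = 0.476). Ndufaf4 (chr4:24898083-24905001, plus strand), whose promoter with an NRF1 core is printed above, was at 40.6, 42.5 and 37.1 CPM in vehicle and at 35.9, 36.0 and 21.3 CPM in inhibitor (-0.37 ± 0.22, edgeR adjusted p = 0.480). In both genes the library of line 3 was by far the lowest, and without it the log2 fold changes were -0.19 and -0.15.

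In this comparison the astrocyte and progenitor markers had medians of 2.21 and 1.94 and the 12 glutamatergic markers a median of -0.30. The GABAergic sum was 621, 624 and 211 CPM in KO inhibitor lines 1 to 3 and 570 to 649 CPM in KO vehicle. Without library KO inhibitor 3 these medians were 0.11, 0.18 and 0.08. The part of any of these markers in the members' values was not tested. Without that library the mitochondrial median was -0.22, mt-Nd3, mt-Nd4l and mt-Atp8 changed sign to 0.07, 0.07 and 0.18, and 4 nuclear members still lay wholly lower, against 8.41% of all genes. The nuclear median was -0.01 without library KO vehicle 2. Both mt-Atp8 and mt-Nd4l departed from the rest in line 1. Relative to vehicle, mt-Atp8 was at 1.70 and mt-Nd4l at 0.74 on the log2 scale in inhibitor, whereas mt-Co1 was at -0.50, and the vehicle library of that line is the one in which short members were low.

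The interaction asks whether the inhibitor difference in KO departs from that in WT. It was negative for all 13 mitochondrial members, with a median of -0.47, and for 74 of 86 nuclear members, with a median of -0.16, against -0.01 over all genes. The largest among mitochondrial members were mt-Nd5 (-0.71 ± 0.37), mt-Nd4 (-0.63 ± 0.34) and mt-Nd6 (-0.58 ± 0.27). The nuclear members with the smallest unadjusted p (0.149 and 0.161 by edgeR) were Ndufv1 and Uqcrfs1. Ndufv1, the NADH-binding subunit of complex I, was at -0.35 ± 0.23 and Uqcrfs1, the Rieske iron-sulfur protein of complex III, at -0.20 ± 0.13. These 5 members had an edgeR adjusted p of 0.808, and no member was below an unadjusted p of 0.05, against 1.2% of all genes.

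Leaving out library KO inhibitor 3 took the mitochondrial interaction median to -0.29, mt-Nd5 to -0.46, mt-Nd3 from -0.12 to 0.12 and Ndufv1 to -0.18, and leaving out all 3 libraries that stand apart took the median to -0.23. Without library WT vehicle 2, mt-Nd6 was at -0.34 and Uqcrfs1 at -0.11, and without library KO vehicle 2 mt-Atp8 changed sign from -0.21 to 0.23. Within nuclear members the interaction median was more negative the longer the class, from -0.02 under 400 nt (9 genes) to -0.10 from 400 to under 800 nt (32 genes), -0.18 from 800 to under 1500 nt (29 genes) and -0.25 at 1500 nt or more (16 genes). The part of the 2 libraries with a dependence on length in these medians was not tested.

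Summing the libraries of each line compares genotypes over both treatments with 3 lines against 3. All 13 mitochondrial members were negative for KO over WT, from -0.09 (mt-Co3) to -0.44 (mt-Nd4l), with a median of -0.16, against 0.04 over 87 nuclear members and 0.04 over all genes. The lines of 1 mitochondrial member, mt-Nd4l, and 1 nuclear member, Ndufa4l2, lay wholly lower in KO and those of 6 nuclear members wholly higher, against 3.78% and 5.18% of all genes. The 6 were Sdhd, Uqcrfs1, Cox6b2, Atp5b, Atp5h and Atp5o.

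In this comparison 4 members had an unadjusted p below 0.05, against 2.65% of all genes. Ndufa4l2 differed by -1.02 ± 0.36 and Cox6b2 (chr7:4751792-4753094, minus strand) by 0.36 ± 0.11, while mt-Nd4l differed by -0.44 ± 0.17 and mt-Nd6 by -0.39 ± 0.15. All had an edgeR adjusted p of 0.998. Atp5h, a stalk subunit of complex V, differed by 0.18 ± 0.09. Without the WT sums of line 2, Ndufa4l2 was at -0.67. Without the KO sums of line 3 the mitochondrial median was -0.02, with mt-Nd1, mt-Nd2, mt-Nd5, mt-Cytb and mt-Co3 above 0 by at most 0.03, and without the KO sums of line 2 the nuclear median was -0.04.

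Genes around the respiratory chain were read in the same fits. The 16 genes of the tricarboxylic acid cycle, which supplies NADH and succinate to complexes I and II, had a median of 0.21 for KO over WT in vehicle, with 9 wholly higher and none wholly lower, where 7.62% and 4.9% of all genes were so. In treated KO against vehicle their median was -0.24 with library KO inhibitor 3 and -0.05 without it. Idh3a, the catalytic subunit of isocitrate dehydrogenase, had the largest positive difference in vehicle (0.43) and the largest negative one in treated KO (-0.45, and -0.11 without library KO inhibitor 3). It was at 231, 204 and 250 CPM in WT vehicle, at 288, 316 and 320 CPM in KO vehicle and at 262, 307 and 109 CPM in KO inhibitor.

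The 11 carriers that link the chain to the rest of the cell, such as cytochrome c and the ADP/ATP translocases, had a median of 0.16 for KO over WT in vehicle (0.08 without library WT vehicle 3) with 4 wholly higher, beside the same 7.62% of all genes, led by Cycs, cytochrome c, at 0.49. The 24 tested genes for the upkeep and expression of mitochondrial DNA had medians of 0.01 for KO over WT in vehicle and 0.07 in inhibitor, the latter -0.07 without library KO inhibitor 3. In treated KO against vehicle this list was at 0.12 (-0.04 without that library), with Hsd17b10, a subunit of mitochondrial RNase P, at 1.00. Hsd17b10 was at 14.3, 12.8 and 10.0 CPM in KO vehicle and at 13.4, 10.6 and 50.2 CPM in KO inhibitor, so line 3 was the high one. The 10 tested regulators of mitochondrial biogenesis had a median of 0.23 there (-0.01 without that library), and Nfe2l2, which was highest at 1.85, was at 11.4, 4.86 and 66.2 CPM in KO inhibitor.

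Glycolysis makes ATP without the respiratory chain. All 19 of its genes were lower in inhibitor than in vehicle in WT, with a median of -0.35, and 8 lay wholly lower, where 2.93% of all genes did so. Without library WT vehicle 2 the median was -0.22, with 18 of 19 negative. In KO the median was -0.06, but 0.27 without library KO inhibitor 3 and -0.28 without library KO inhibitor 2. The interaction median was 0.34, and 0.58 and 0.07 without the same libraries. The summed CPM of the 19 genes ran from 5013 in library KO inhibitor 3 to 12154 in library KO inhibitor 2. None of the genes in these lists was called by edgeR or DESeq2 in any comparison, and edgeR had at most 2 genes of a list at an unadjusted p below 0.05. The 32 tested assembly factors of complexes II to V had medians from -0.08 to 0.03 over the 6 comparisons, and the 10 further complex I assembly factors ranged from -0.07 to 0.06.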

How the data were processed

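Each of the 12 libraries has 1 table of 36902 Ensembl genes, with raw read counts and cRPKM values as deposited by the authors. Per the submitters' processing notes the build was mm10. The aligner, the counter, the annotation, the correction behind the RPKM-type values and the use of strand are not given in the sources used here. Counts entered the fits unchanged, as deposited; 3342 genes, NA in every table, were left out. The deposited RPKM-type values (cRPKM) served only to compare levels between genes. The length behind them was computed from the ratio of count to cRPKM, which matched over libraries to within 0.142% after scaling by totals.

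Symbols and coordinates came from the GENCODE annotation of GRCm38, and promoters from RefSeq's table for GRCm38.p6. CPM are counts over each library's total multiplied by its TMM factor, while shares of counts use the plain total. Genes kept by edgeR's filterByExpr (15443 for 12 libraries, 16090 for line sums) were fitted in 1 model with 4 groups by edgeR 4.0.16 in R 4.3.3 (TMM scaling, robust quasi-likelihood test, Benjamini-Hochberg adjustment over all genes tested, threshold 0.05). DESeq2 1.42.0 was an alternative, beside other scalings, filters, a replicate block and left-out libraries. The fit was also run on counts simulated from each gene's mean level, with no library that stands apart. The outcome is not given here, so no power to find differences can be read from it. Libraries were said not to overlap where every CPM of 1 group lay above every CPM of the other.

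Both libraries of a line are paired by their label. Their deviations from the group means correlated at 0.411, -0.553 and -0.723 for WT lines 1 to 3 and at -0.191, 0.574 and -0.373 for KO lines 1 to 3.

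The members, lists and alternatives were chosen with earlier results of these data known. The text names all mitochondrial members, the nuclear members with the 2 largest differences in each direction among those that did not overlap (at 1 CPM or more), the highest and lowest member of each complex, isoform sets and the extreme genes of each list. Other genes, such as the rest of the 16 members higher in vehicle, were named after their values were seen.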

Additional observations from a re-analysis of the deposited data

Results flagged for a closer look

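In each of these results the log2 ratio of inhibitor to vehicle lay above 0 in all 3 WT lines and below 0 in all 3 KO lines. The results were picked for this pattern of signs, and some of the WT ratios were close to 0. No line had replicate libraries within a treatment, so the spread of a ratio within a line is not known. The share of all counts held by the 13 mitochondrial members was higher in inhibitor than in vehicle in all 3 WT lines. The log2 ratios of inhibitor to vehicle were 0.0038, 0.07 and 0.21 there. In all 3 KO lines the share was lower, with log2 ratios of -0.44, -0.18 and -0.42. The mean log2 ratio was -0.44 in KO relative to WT, and for the share this difference was not tested; in the first WT line the ratio was close to 0.

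Of the 13 mitochondrial members 7 showed the same split in CPM, against 287 of the 15227 genes above 0 in every library (1.88%). The mean log2 ratio in KO relative to WT was -0.51 for mt-Nd2, -0.62 for mt-Nd4, -0.75 for mt-Nd5 and -0.62 for mt-Nd6, which belong to complex I. It was -0.59 for mt-Cytb of complex III, and -0.48 for mt-Co1 and -0.39 for mt-Co2 of complex IV. Some WT ratios were small, such as 0.016 for mt-Co1 and 0.018 for mt-Co2 in WT line 2 and 0.022 for mt-Nd2 in WT line 1. The ratios of KO line 1 use library KO vehicle 1, where mitochondrial members of 800 nt or more were at their highest (0.34). In edgeR's interaction test all 7 had an adjusted p of 0.808, and without library KO inhibitor 3 the smallest adjusted p of any member was 1.00. The members share libraries and, apart from mt-Nd6, a strand, so they are not independent of each other. No nuclear share showed the split.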

How the results depend on the processing

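No member was called under any alternative tried: DESeq2, other scalings, no filter or at least 10 counts in every library, a replicate block, each library or line left out in turn, and the 3 libraries that stand apart (KO inhibitor 3, WT vehicle 2 and WT inhibitor 3) left out together. With those 3 left out, the mitochondrial median for KO over WT in inhibitor was -0.19 in place of -0.41, the interaction median -0.23 in place of -0.47, and mt-Nd3 changed sign to 0.11 for KO over WT in inhibitor; the cause was not tested. The other 398 summary values moved by less than the spread between lines. The other 541 values of named members kept their direction and side of the threshold. Single mitochondrial members entered these 541 only for KO over WT in inhibitor. In other comparisons some changed sign with 1 library left out, as given above for mt-Nd3, mt-Nd4l and mt-Atp8. Leaving out 1 library at a time gave mitochondrial medians of -0.04 to 0.16 for KO over WT in vehicle, -0.55 to -0.26 in inhibitor, 0.06 to 0.15 for inhibitor over vehicle in WT, -0.49 to -0.22 in KO and -0.60 to -0.29 for the interaction. The nuclear medians ran from 0.02 to 0.17, -0.13 to 0.01, -0.01 to 0.12, -0.17 to -0.01 and -0.24 to -0.07. Leaving out 1 line gave -0.25 to -0.02 (mitochondrial) and -0.04 to 0.07 (nuclear) over line sums.

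With the replicate block (the cell line for the inhibitor comparisons and the interaction, the replicate number for the genotype comparisons, where lines of 1 number share nothing else in the labels) the mitochondrial medians were 0.06, -0.43, 0.12, -0.37 and -0.48 in the order above and -0.18 over line sums. The nuclear medians were 0.09, -0.07, 0.08, -0.10, -0.16 and 0.03, and the block changed no call. With 3 lines a group, no member's difference passed the test. The biological coefficient of variation of 0.411 in the 12-library fit is a value over all genes. Over the 12 libraries, the cRPKM of members at a mean of 1 or more had median coefficients of variation of 15.9% (mitochondrial) and 11.8% (nuclear). The 5 members left untested in the 12-library fit had low counts, such as Cox4i2 with 0 to 10 a library. Leaving each library out of the pathway and marker lists, and of single mitochondrial members in every comparison, was chosen after seeing the data.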
